A study of Mus musculus with 2 samples.

Results

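The ETS factors are transcription factors that share a DNA-binding region, the ETS domain, and the peaks described here are those at 10 of their genes in cardiac fibroblasts, the cells that make the heart's collagen matrix. The genes are Spi1, which encodes PU.1, and Ets1, Ets2, Fli1, Erg, Elk3, Elk4, Elf1, Etv1 and Etv6. They were chosen by name, as all rows of the peak table that carry one of these gene symbols, which gave 56 of 63316 peaks and 10 of the 16934 genes with a peak. All 10 genes had between 2 and 14 peaks. A peak is a stretch of DNA called as open by ATAC-seq, an assay built on the Tn5 transposase, which cuts accessible DNA and tags it for sequencing.

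The labels describe 2 libraries of mouse primary cardiac fibroblasts from the heart, both treated with TGF-β, a cytokine that drives fibroblasts towards matrix-producing myofibroblasts. The library siPiezo2 came from cells given an siRNA against Piezo2, a mechanically gated ion channel, and the library NC is the control, which the study describes as transfected with a scrambled siRNA. No strain, age or number of animals is given in the labels. The design text of the series speaks instead of a Tet3 knockout induced with Cre virus, and the study's methods describe minced tissue and another library kit, while the groups used here follow the sample labels and the study's account of its Piezo2 experiment.

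With 1 library per condition there was no replicate error, no test between conditions was possible, and every difference below describes these 2 libraries. Intervals are 95% exact binomial intervals from the reads behind each value and cover counting error only. Reads were counted in a 2000 bp window around each peak. Some windows overlap at Ets1, Ets2, Fli1, Elk3, Elk4, Etv1 and Etv6. Their shared reads enter a gene's sum more than once, so the intervals of these sums are too narrow. The libraries had 4615335 (NC) and 2754046 (siPiezo2) reads over all peaks. Among peaks called in both libraries with as many NC reads as the ETS peaks, the variance was 2.29 times what counting alone gives, so each gene's interval was also widened by the square root of that ratio, 1.51 times. In a bulk library, fewer cells with an open region and less opening per cell cannot be told apart, and an open region is not a transcript. The siRNA acts on the Piezo2 transcript, so the 14 peaks at the Piezo2 gene, with a summed density of 334 in NC and 242 in siPiezo2, do not measure the knockdown. Of the fibroblast markers, 7 of 9 had a peak, among them Col1a1, Col1a2, Pdgfra, Tcf21 and Postn, while Lum and Thy1 had none. The densities of these 7 summed to 986 in NC and 905 in siPiezo2, and the largest part was Ddr2, with 464 and 463. Of the 7, 6 were lower in siPiezo2, where 62.6% of all genes were, and 1 was higher. Peaks were also present at 6 of 10 macrophage and myeloid markers, 6 of 9 endothelial markers, 3 of 5 cardiomyocyte markers and 2 of 3 pericyte markers.

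ETS factors recognise DNA with a GGAA core, and the flanking bases and protein partners set which of them binds. PU.1 is best known for building macrophages, neutrophils and B cells, and has been described as a regulator of fibroblast activation. Ets1 and Ets2 are activators switched on by Ras and ERK signalling, Fli1 and Erg maintain endothelial and blood-forming cells, and Elk3 and Elk4 are ternary complex factors that bind beside the serum response factor SRF. Elf1 acts in lymphoid and endothelial cells, Etv1 is an ERK-responsive activator of the PEA3 group, and Etv6 is a repressor. The bases before the start sites of Elk4 and Etv6 are shown because both promoters lay under peaks, and because Elk4 was the only gene of the 7 matched ones with the preferred core of the Ets1 type and the purine-rich PU.1 core in these windows. Each line gives the 250 bases before the start, 5′ to 3′, from RefSeq on GRCm38.p6, at chr1:132007370-132007619 for Elk4 and chr6:134035450-134035699 for Etv6, both on the plus strand. Capitals mark GGAA on either strand, which reads TTCC on the strand printed.
Elk4: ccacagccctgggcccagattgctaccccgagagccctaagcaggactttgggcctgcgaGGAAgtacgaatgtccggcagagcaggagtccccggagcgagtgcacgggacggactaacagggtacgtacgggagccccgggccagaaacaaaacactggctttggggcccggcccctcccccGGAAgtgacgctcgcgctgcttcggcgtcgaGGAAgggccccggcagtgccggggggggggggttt
Etv6: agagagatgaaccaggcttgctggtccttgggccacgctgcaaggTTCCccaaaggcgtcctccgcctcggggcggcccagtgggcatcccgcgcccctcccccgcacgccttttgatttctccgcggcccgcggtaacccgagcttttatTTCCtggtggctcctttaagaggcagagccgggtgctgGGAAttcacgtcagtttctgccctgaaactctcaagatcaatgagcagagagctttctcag

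Promoters of 7 of the 10 members were matched by symbol to the RefSeq table, with 13 windows between them, and those of Spi1, Ets1 and Fli1 were not. GGAA on either strand stood in 11 of the 13 windows, 0 to 4 times with a median of 2, against 93.4% of the 32851 windows of all genes, where the median was 3. The core CCGGAAG, counted on both strands and itself containing GGAA, was present in 1 member window, 68 bases before the start of Elk4, and in 6.91% of all windows. The core GAGGAAG, also containing GGAA, was in 1 member window, again that of Elk4, and in 10.6% of all windows. The CArG box, the SRF site at which Elk3 and Elk4 join SRF, was in 0 of the 13 windows and in 1.47% of all. These are matches of letters and not measured binding. The peak at the Elk4 promoter reached from -265 to -2 bases relative to the table's start site, which lies 13 bases from the RefSeq start, and thus covered most of the printed bases. At Etv6 the start sites were identical and the peak nearest the start ran from -102 to 98 bases.

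Accessibility was measured as a density, the reads per kb of a 2000 bp window around a peak after the authors' normalization between the libraries. Ratios are given as log2 of siPiezo2 over NC after adding 1 to each density, and a peak or gene is counted as past 1.5-fold from the plain ratio. Of the 56 ETS peaks, 39 were lower and 17 higher in the siPiezo2 library, and the median log2 ratio was -0.22, compared with -0.13 for the whole table. The share of lower peaks was 69.6% at the ETS genes and 63.7% in the whole table. Past 1.5-fold, 8 ETS peaks (14.3%) were lower, where 15.6% of all peaks were, and 2 (3.57%) were higher, where 3.62% of all peaks were. Both shares lay near those of all peaks. The counting interval lay below 0 at 7 of the 56 ETS peaks, where it did for 11.4% of all peaks, and above 0 at 0, where it did for 3.63%. The 2 higher peaks were both at Spi1, and the 8 lower ones lay at Etv6, Ets1, Fli1, Erg and Elf1. These counts depend on the scaling of the libraries: 3 lower and 4 higher under median-of-ratios scaling, where 9.72% of all peaks were lower and 6.97% higher. The median over all peaks was 0 under that scaling.

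Summed over its peaks, each gene gave 1 density per library. Spi1 and Ets2 were higher and the other 8 genes lower in siPiezo2, where 62.6% of all genes were lower. Elk4 and Etv1 stood above 0 under median-of-ratios and trimmed mean scaling. The median log2 ratio was -0.24 over the 10 genes and -0.093 over all genes. No member was past 1.5-fold in either direction, where 7.27% of all genes were lower and 1.72% higher. Under 3 other scalings Spi1 was past it, as given with that gene. The counting interval lay below 0 for 6 members, where it did for 15.2% of all genes, and above 0 for 1, where it did for 4.37%. Many genes have fewer reads than any member, and among the 8207 genes with at least 125 NC reads, the fewest of a member, the shares were 24.1% and 5.60%. After widening it lay below 0 for Etv6 only, where it did for 5.82% of all genes, and above 0 for 0 members, where it did for 1.12%. These calls depend on the scaling. Under median-of-ratios and under trimmed mean scaling the counting interval lay below 0 for Etv6 only and above 0 for Spi1, while after widening it lay below 0 for no member and above 0 for Spi1. Under median-of-ratios scaling the counting interval of all genes lay below 0 for 6.97% and above 0 for 11.2%, and the widened one for 2.20% and 3.37%. Trimmed mean scaling gave 6.81% and 11.3%, and 2.16% and 3.48% for the widened one. Under every scaling tried that equalises the libraries, 7 of the 10 members lay below the median of all genes. The number below 0 ranged from 6 to 8. Most of these scalings multiply each library by a constant, which moves all genes almost alike, so that the count of 7 could hardly change.

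**Figure D1:**
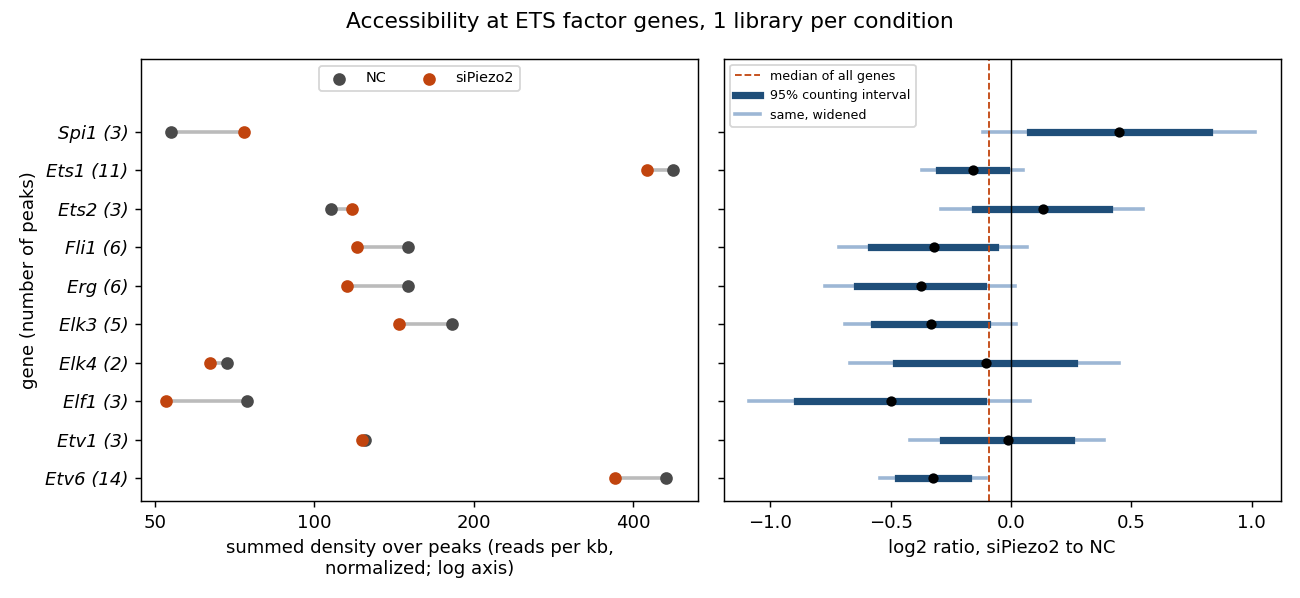
Left, the summed density of each gene in NC (grey) and siPiezo2 (orange) on a log axis, with the number of peaks in brackets. Right, the log2 ratio with its 95% counting interval (dark bar) and the interval widened for the extra variance (pale bar). Spi1 stands to the right at 0.45, and Etv6 is the gene whose pale bar stays below 0, both with the authors' scaling.

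Spi1, the gene of PU.1, had the highest ratio of the 10 members. Its summed density was 53.6 in NC and 73.6 in siPiezo2, from 125 and 120 reads, a log2 ratio of 0.45 (0.077 to 0.82). Without its most changed peak it was 0.35 (-0.11 to 0.81), an interval that included 0. The widened interval ran from -0.12 to 1.02 and included 0, while under median-of-ratios scaling it ran from 0.022 to 1.15. The unscaled reads were about equal in the libraries, and the value depends on how the shallower siPiezo2 library is scaled. Without scaling the log2 ratio was -0.058, and it was 0.54 with the densities at the same total, 0.59 under median-of-ratios and under trimmed mean scaling and 0.68 from reads at the same total. The last 3 are ratios of 1.51, 1.52 and 1.61, past 1.5-fold, where under these scalings 4.26%, 4.29% and 4.68% of all genes were higher past it. Among all 16934 genes the Spi1 ratio stood at percentile 96.2. The gene spans chr2:90912735-90946101 on the plus strand (coordinates of the table, GRCm39), and its 3 peaks all lay in its distal portion, in intron 2 of 3 and the 3′ UTR. At chr2:90931786-90932000 in intron 2, the peak called in both libraries, the density was 16.7 in NC and 26.3 in siPiezo2, a 1.57-fold value with a log2 ratio of 0.62 (-0.037 to 1.29). In the 3′ UTR at chr2:90945458-90945658 it was 19.4 in NC and 29.6 in siPiezo2, 1.53-fold, with a log2 ratio of 0.58 (-0.030 to 1.20). The remaining peak in intron 2, at chr2:90942953-90943167, was level, at 17.4 in NC and 17.7 in siPiezo2. This peak and the 3′ UTR peak were called in NC only, although the 3′ UTR density was higher in siPiezo2. No Spi1 peak lay within 1 kb of a TSS, and the 2 peaks nearest the end of the gene were closer to the TSS of the neighbour Mybpc3, a cardiomyocyte sarcomere gene, at distances of 2931 and 5429 bp. They carry the Spi1 symbol because they lie inside the gene.

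PU.1 is a defining factor of macrophages, and the myeloid markers were therefore set beside it. Their summed density was 266 in NC and 238 in siPiezo2, with 4 of 6 measured genes below 0 and a median log2 ratio of -0.25. Csf1r, the receptor for the macrophage growth factor, had 82.0 in NC and 68.5 in siPiezo2, and Itgam, an integrin of myeloid cells, had 49.7 and 39.5. Cd14 went the other way, with 46.9 in NC and 56.0 in siPiezo2. Cd68, Adgre1, Tyrobp and Lyz2 had no peak. Over all genes 62.6% were below 0, and the interval of each of the 6 myeloid genes included 0. The median of the list was -0.11 under median-of-ratios scaling and -0.0017 from reads at the same total, and the list's part in the Spi1 value was not tested.

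Ets1 and Ets2, the ERK-responsive pair, had small ratios. Over its 11 peaks Ets1 summed to 475 in NC and 425 in siPiezo2, the largest sums of the 10 members. Reads in its overlapping windows are counted more than once there, and the ranking rests on that count. The log2 ratio of Ets1 was -0.16 (-0.30 to -0.019), with a widened interval that reached 0.052. With separate windows only it was -0.20. Under median-of-ratios and trimmed mean scaling Ets1 was at -0.019 and -0.015. Ets2 had 3 peaks with 107 in NC and 118 in siPiezo2, a log2 ratio of 0.13 (-0.15 to 0.41). In that sum the reads shared by overlapping windows count more than once, and with separate windows only it was 0.053.

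Along Ets1 (chr9:32547517-32669116, plus strand), peaks of both signs were present. The strongest peak, at an internal start site (chr9:32606854-32607540), had a density of 89.8 in NC and 76.8 in siPiezo2, and its neighbour at chr9:32608097-32608328 had 54.2 and 49.1, with windows that overlap and share reads. Their log2 ratios of -0.22 (-0.56 to 0.11) and -0.14 (-0.56 to 0.28) were within counting error of 0. Lower past 1.5-fold were an intron 3 peak before that start, at chr9:32580723-32581044, with 28.3 in NC and 18.0 in siPiezo2, and the last peak of the gene, at chr9:32663889-32664430 in exon 9 of 10, with 55.6 and 35.7 and a log2 ratio of -0.62 (-1.10 to -0.17). Between them, named after their values were seen, lay 3 neighbouring peaks above 0 that were each called in both libraries, at log2 ratios of 0.28, 0.086 and 0.45, the first pair with overlapping windows that share reads. The last of these had 30.4 in NC and 41.9 in siPiezo2, and none of their intervals excluded 0. They were followed by 2 intron 8 peaks below 0, at -0.29 and -0.31, whose intervals also included 0. In all 7 Ets1 peaks were below 0 and 4 above, and without its last peak the gene's log2 ratio was -0.10 (-0.25 to 0.041).

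At Ets2 (chr16:95502942-95522095, plus strand) the promoter had the higher density in the siPiezo2 library, within counting error. The promoter peak at chr16:95502637-95503056 had 45.5 in NC and 52.8 in siPiezo2, a log2 ratio of 0.21 (-0.22 to 0.63), and the 5′ UTR peak beside it at chr16:95503148-95503609 had 45.4 and 53.4. Their windows overlap, so that these are largely the same reads and count as 1 measurement. The intron 2 peak at chr16:95509693-95509896 was weaker, at 16.5 in NC and 11.5 in siPiezo2 from 37 and 19 reads, a log2 ratio of -0.48 (-1.36 to 0.35).

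**Figure D2:**
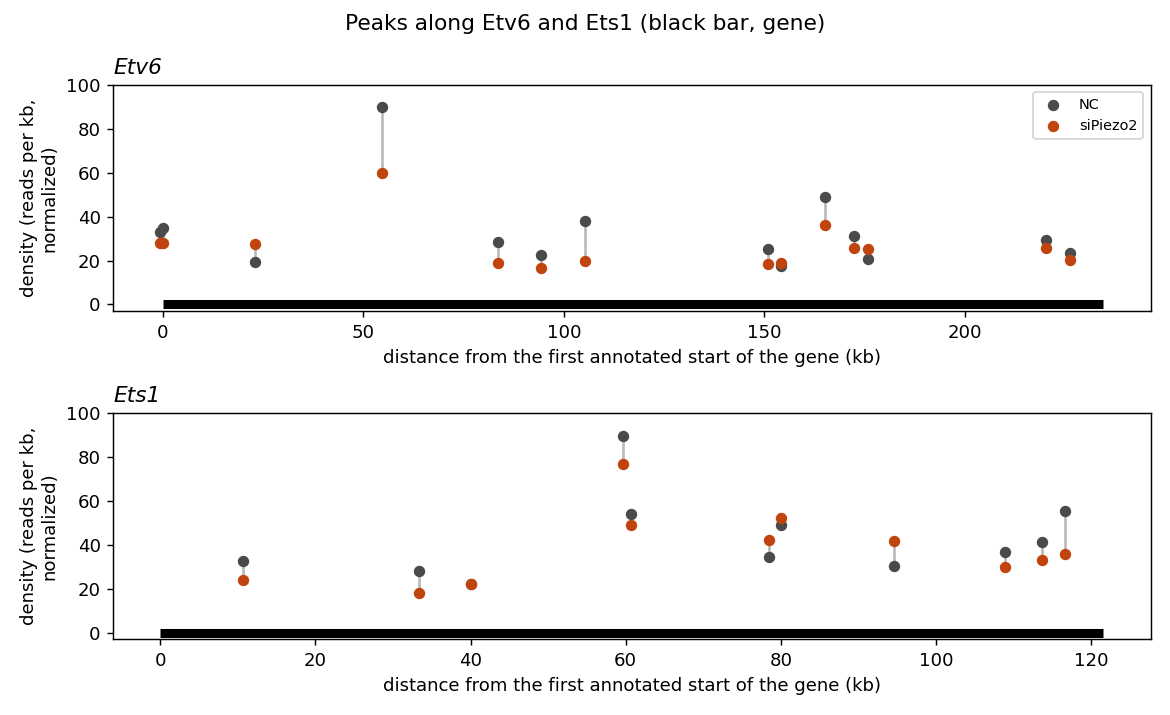
Density of each peak (vertical axis, normalized reads per kb) along Etv6 and Ets1 against the distance from the gene's first annotated start (horizontal axis, kb), in NC (grey) and siPiezo2 (orange), with the gene as a black bar. At Etv6 the NC point is the higher one at 11 of 14 peaks, and at Ets1 it is the higher one at 7 of 11.

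Fli1 and Erg, the endothelial and haematopoietic pair, had nearly the same sums. Fli1 went from 150.3 in NC to 120.1 in siPiezo2 over 6 peaks, a log2 ratio of -0.32 (-0.58 to -0.065), and Erg from 150.1 to 115.5 over 6 peaks, a log2 ratio of -0.37 (-0.64 to -0.11). The widened intervals of both reached above 0, to 0.067 and 0.019. Fli1 is also known as a repressor of collagen genes in fibroblasts. Each gene had 5 of 6 peaks below 0 and no peak within 1 kb of a TSS, and all 12 of their peaks were intronic.

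The Fli1 value rested on 1 peak. At chr9:32355122-32355553, in intron 5 of 8 (gene chr9:32333500-32452891, minus strand), the density was 46.0 in NC and 22.3 in siPiezo2, from 113 and 35 reads. Its log2 ratio of -1.01 (-1.60 to -0.45) was the lowest of the 56 peaks and the only one past 2-fold. Without it, the sums were 104 in NC and 97.8 in siPiezo2, a log2 ratio of -0.092 (-0.39 to 0.20). The next strongest Fli1 peaks were close to level, with 25.9 in NC and 24.9 in siPiezo2 at chr9:32451489-32451732 in intron 1 and 22.1 and 20.3 at chr9:32379648-32379848 in intron 2. All 6 Fli1 peaks were called in NC only.

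At Erg (chr16:95160028-95387452, minus strand) the lower values were spread over more peaks. The strongest, at chr16:95216726-95217139 in intron 2 of 10, had 40.7 in NC and 31.3 in siPiezo2, a log2 ratio of -0.37 (-0.89 to 0.14). At chr16:95223560-95223979 in the same intron it was 32.9 in NC and 20.1 in siPiezo2, lower past 1.5-fold with a log2 ratio of -0.68 (-1.32 to -0.075). An intron 1 peak at chr16:95374156-95374356 had 23.0 and 19.1. Without the most changed peak the Erg log2 ratio was -0.29 (-0.59 to -0.0040), so its interval still lay below 0. The endothelial markers had a summed density of 494 in NC and 532 in siPiezo2, with 4 of 6 genes above 0 and a median log2 ratio of 0.057, and without Cdh5 the sums were 447 and 454. Cdh5, the adhesion molecule of endothelial junctions, had 47.7 in NC and 78.0 in siPiezo2. Kdr and Tek, receptors of endothelial growth factors, had log2 ratios of -0.098 and -0.063, while Tie1, Egfl7 and Cldn5 had no peak. Their part in the Fli1 and Erg values was not tested.

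Of the ternary complex factors, Elk3 was lower and Elk4 was near level. Elk3, mainly a repressor until ERK phosphorylates it, had 182 in NC and 144 in siPiezo2 over 5 peaks, a log2 ratio of -0.33 (-0.57 to -0.10, widened to 0.019 at its upper end). Elk4 had 68.4 in NC and 63.5 in siPiezo2 over 2 peaks, a log2 ratio of -0.11 (-0.48 to 0.26).

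The Elk3 gene (chr10:93083276-93146997, minus strand) had its strongest peak inside intron 1 of 4, at chr10:93123480-93123957, where the density was 67.0 in NC and 44.8 in siPiezo2. Its log2 ratio was -0.57 (-0.99 to -0.16), and with a plain ratio of 0.670 it stood just outside the 1.5-fold limit, while an Etv6 peak at 0.666 stood just inside. The promoter peak at chr10:93146785-93146991 was weaker and nearer to level, at 22.5 in NC and 20.4 in siPiezo2. Other intronic peaks had 36.1 and 31.1 at chr10:93107765-93108049 and 32.3 and 22.6 at chr10:93145035-93145365, the last with a window that overlaps that of the promoter. Without its strongest peak, Elk3 had a log2 ratio of -0.21 (-0.50 to 0.077).

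At Elk4 (chr1:131935345-131954186, plus strand) the promoter whose bases are printed above had a density of 36.6 in NC and 39.0 in siPiezo2 (peak chr1:131935080-131935343), a log2 ratio of 0.091 (-0.40 to 0.57). The peak farther upstream at chr1:131933822-131934106 had 31.8 in NC and 24.5 in siPiezo2, a log2 ratio of -0.36 (-0.96 to 0.21). The pair has overlapping windows and opposite signs, and neither interval excluded 0.

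Elf1 had the lowest ratio of the 10 genes. Its summed density was 74.6 in NC and 52.6 in siPiezo2, from 176 and 85 reads, a log2 ratio of -0.50 (-0.89 to -0.12) at percentile 10.1 of all genes, and the widened interval reached 0.080. All 3 peaks were intronic, called in NC only and below 0. At chr14:79741193-79741722, in intron 1 of 8 (gene chr14:79718634-79819934, plus strand), the density was 36.4 in NC and 20.8 in siPiezo2, a log2 ratio of -0.78 (-1.40 to -0.18). The peaks at chr14:79786725-79787075 and chr14:79800309-79800524 had 18.7 in NC and 16.5 in siPiezo2, and 19.6 and 15.3. Elf1 without its strongest peak had a log2 ratio of -0.26 (-0.78 to 0.25), so its interval then included 0.

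Etv1 was close to level between the libraries. Over 3 peaks, each called in both, the sums were 124 in NC and 123 in siPiezo2, a log2 ratio of -0.013 (-0.28 to 0.25). The promoter peak at chr12:38828601-38828964 had 45.1 in NC and 42.0 in siPiezo2, the intron 1 peak just after the start at chr12:38829386-38829679 had 48.8 and 52.3, and the intron 4 peak at chr12:38838576-38838954 had 30.4 and 29.0 (gene chr12:38829379-38916248, plus strand). The windows of the promoter and intron 1 peaks overlap and share reads. The ratios ran from -0.10 to 0.096, and the interval of the gene still allows a difference of either sign.

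Etv6, the repressor, had 14 peaks, the most of the 10 genes, and the only value whose widened interval stayed below 0 with the authors' scaling. Its sums were 462 in NC and 369 in siPiezo2, from 1135 and 583 reads, a log2 ratio of -0.32 (-0.47 to -0.18, widened to -0.55 to -0.10). Under median-of-ratios scaling it was -0.18, with a counting interval of -0.33 to -0.039 and a widened one of -0.41 to 0.035. With its most changed peak left out it was -0.28 (-0.43 to -0.13). In all, 11 of its peaks were lower and 3 higher, and 11 were called in NC only. Relative to all genes this was not extreme, at percentile 22.1.

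The largest differences at Etv6 lay in introns 1 and 2 of 7, at a distance from the start (gene chr6:134012663-134247118, plus strand). The strongest peak, at chr6:134066941-134067541 in intron 1, had 90.0 in NC and 60.0 in siPiezo2, a log2 ratio of -0.58 (-0.95 to -0.22). The most changed, at chr6:134117764-134118107 in intron 2, had 38.0 in NC and 19.6 in siPiezo2, a log2 ratio of -0.92 (-1.56 to -0.32). An intron 1 peak at chr6:134096147-134096462 had 28.2 and 18.7. These 3 made up the Etv6 peaks past 1.5-fold. The strong intron 2 peak at chr6:134177520-134177958 was also lower, at 48.8 in NC and 36.2 in siPiezo2, a log2 ratio of -0.42 (-0.90 to 0.045). In the opposite direction, the only ETS peak called in siPiezo2 alone was at chr6:134035555-134035766 in intron 1, with 19.5 in NC and 27.7 in siPiezo2.

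The Etv6 promoter, shown by its bases above, had 34.8 in NC and 27.8 in siPiezo2 at the peak over the start (chr6:134012561-134012761), a log2 ratio of -0.31 (-0.87 to 0.23), and 33.2 and 27.8 at the peak just upstream (chr6:134011914-134012297). These windows overlap. The pair together gave -0.28 (-0.67 to 0.096), and the 12 other peaks of the gene -0.33 (-0.49 to -0.17), with intervals that overlap. Shared reads count more than once in the pair, so its interval is too narrow.

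The members' peaks were also split by their distance from a start site. The 10 peaks within 1 kb of a TSS, from 6 genes, ranged in log2 ratio from -0.31 to 0.23 with a median of -0.12, and 0 were past 1.5-fold, where 7.70% of all such peaks were lower and 2.41% higher. The 46 peaks farther away ranged from -1.01 to 0.62 with a median of -0.27, and all 8 lower and both higher peaks past 1.5-fold were among them (17.4% and 4.35%), where 18.0% and 3.97% of all such peaks were. Over all peaks the same split gave medians of -0.042 and -0.17. Within 5 of the 6 genes with both kinds of peak, the value near the TSS was above that of the gene's other peaks, Ets1 being the exception. Of the 10 peaks near a TSS, 8 lie in overlapping pairs at Ets1, Ets2, Etv1 and Etv6, and those of Elk3 and Elk4 overlap a peak farther away, so these values are not separate measurements.

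**Figure D3:**
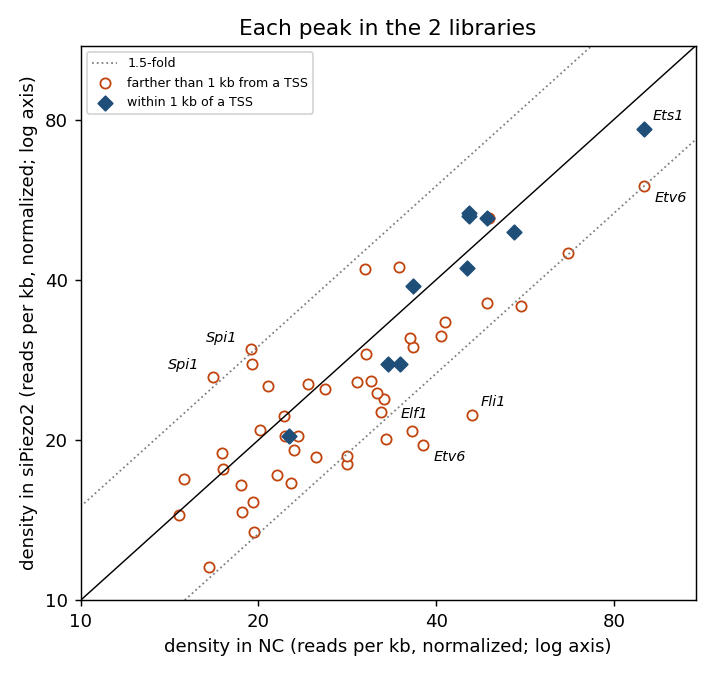
Each of the 56 peaks by its density in NC (horizontal) and siPiezo2 (vertical), both on log axes, with the line of equality, dotted lines at 1.5-fold, and diamonds for peaks within 1 kb of a TSS. All diamonds lie between the dotted lines, the 2 Spi1 peaks lie above them, and the Fli1 peak with 46.0 in NC and 22.3 in siPiezo2 lies farthest below.

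By position, 44 of the 56 ETS peaks (78.6%) were in introns, against 42.0% of all peaks. Intergenic peaks carry no gene symbol and could not be members, which raises that share. Intronic ETS peaks had a median log2 ratio of -0.26, and those of all genes -0.17. Peaks called in both libraries made up 33.9% of the ETS peaks and 33.8% of all, those called in NC only 64.3% and 64.0%. The ETS peaks called in both had a median of -0.070 against 0.0025 over all such peaks, and those called in NC only had -0.26 against -0.23. Of the 36 peaks called in NC only, 29 (80.6%) were below 0 and 7 above, where 73.1% of all such peaks were below 0. The calling in 1 library is not independent of the ratio. Peak widths ran from 200 to 686 bp with a median of 301.5 bp.

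Of 15 further ETS genes 12 had a peak (not Spic, Ehf or Fev), of which 7 were below and 5 above 0 and 0 were past 1.5-fold. Over all genes 62.6% were below 0, and 7.27% were lower and 1.72% higher past 1.5-fold. The median of the 12 was -0.069 on the log2 scale, where that of all genes was -0.093. The range was wide, and its ends, named after their values were seen, had 1 peak each. Spib, a close relative of Spi1, had 25.5 in NC and 37.7 in siPiezo2, a log2 ratio of 0.55 (0.012 to 1.08), and Etv2, a factor of early endothelial cells, had 15.3 and 10.3, a log2 ratio of -0.53 (-1.46 to 0.35). By reads the leading ones were Elf2, Erf, Etv5, Elf4, Etv4 and Gabpa. Elf4, a relative of Elf1, was the one of these 6 whose counting interval excluded 0. It had 147 in NC and 113 in siPiezo2, a log2 ratio of -0.38 (-0.64 to -0.12). The intervals in this and the next paragraph are counting intervals, given without widening. Elf2, the other close relative of Elf1, had 211 in NC and 227 in siPiezo2. The ERK-regulated repressor Erf had 169 and 153, and the PEA3 factors Etv5 and Etv4, of the same group as Etv1, had 163 and 157, and 103 and 94.1. Gabpa, the ETS subunit of GABP, had 58.3 in NC and 65.0 in siPiezo2.

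Among 15 partners and members of the ERK pathway, 14 had a peak (not Jun), 10 were below and 4 above 0, the median was -0.12 and 0 were past 1.5-fold. Of all genes, 62.6% were below 0, and 7.27% were lower and 1.72% higher past 1.5-fold. Runx1, which binds DNA together with Ets1, had 638 in NC and 557 in siPiezo2, a log2 ratio of -0.20 (-0.32 to -0.075). Cic, a repressor of the PEA3 genes, was higher, with 245 in NC and 319 in siPiezo2, a log2 ratio of 0.38 (0.21 to 0.55). SRF, the partner of Elk3 and Elk4, had 135 at its gene in NC and 123 in siPiezo2. The ERK pathway inhibitors Spred2 and Spry2 had 245 and 228, and 121 and 134, in NC and siPiezo2.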

How the data were processed

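ATAC-seq was measured in 2 libraries, NC and siPiezo2. Per the submitters' processing notes, reads were aligned with BWA 0.7.12, and the methods name MACS2 for peaks. The labels name mm10, but the coordinates in the table are those of GRCm39 (0 of 10 member genes had a GRCm38 start or end). The authors deposited 1 table of merged peaks. Its signal columns are read densities that the authors normalized between the libraries along a straight line fitted to the log2 ratios against mean density. Its other columns, the log2 ratio and mean and a p-value, are the authors' own comparison and were not used.

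From the densities, whole reads per 2000 bp window were recovered (100% of peaks whole within 0.05 reads, with 1 added read), and Clopper-Pearson intervals were taken from them. A median ETS peak had 74.5 (NC) and 40.5 (siPiezo2) reads, which sets the precision. Peaks were summed per gene symbol, and log2((siPiezo2 + 1)/(NC + 1)) was taken. The recovery and the intervals of single peaks were tested on simulated counts that held counting error only. That test did not cover extra variance, reads shared by windows or sums over the peaks of a gene. The members and all gene lists were chosen with earlier results of these data known. All 10 members are named, with all promoter peaks, all peaks past 1.5-fold and the 3 strongest peaks of each, and at most 6 genes by reads from the family and partner lists, of which 1 is not reported here. Alternatives were another pseudocount, scaling, threshold, peak strength, peak class and window overlap. Those leaving out the most changed peak, the peaks near a TSS or single genes, a ratio under 0.66, the widened interval and the intervals under each scaling were added after seeing the data. The work was done in Python 3.11.15 with scipy 1.17.1 and numpy 2.4.6 for the intervals, pandas 2.3.3 for the table and matplotlib 3.10.9 for the plots.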

Additional observations from a re-analysis of the deposited data

How the results depend on the processing

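The median log2 ratio over the 10 ETS genes kept its sign under every alternative, from the reported -0.24. It was -0.10 under median-of-ratios scaling, -0.15 with the densities at the same total, -0.097 under trimmed mean scaling, -0.13 from reads at the same total, and -0.87 from unscaled reads. It was -0.12 with promoter peaks only (which leaves 6 genes), -0.34 with separate windows only, -0.099 without each gene's most changed peak and -0.35 without peaks near a TSS. The median over the 56 peaks, reported as -0.22, was -0.079, -0.13, -0.076, -0.091 and -0.82 under the same 5 scalings in that order, -0.070 over peaks called in both libraries and -0.14 without Etv6 and Ets1. The count of peaks past 1.5-fold, 8 lower and 2 higher, became 3 and 4 under median-of-ratios and under trimmed mean scaling, 4 and 3 at the same total of densities (11.7% and 5.48% of all peaks), 6 and 3 from reads at the same total (8.53% and 8.73%), 40 and 0 from unscaled reads (62.8% and 0.466% of all peaks), 2 and 1 over peaks called in both (6.24% and 4.98% of all such peaks), and 1 and 0 at a 2-fold threshold (3.50% and 0.622%). It was 5 lower and 2 higher of 42 peaks without Etv6 (11.9% and 4.76%), and 3 and 2 of 31 without Etv6 and Ets1 (9.68% and 6.45%). Over all peaks the lower and higher shares were 15.6% and 3.62% as reported and 9.72% and 6.97% under median-of-ratios and 9.66% and 7.02% under trimmed mean scaling. Of the genes whose counting interval excluded 0, Spi1 alone changed sign, to -0.058 in unscaled reads, and it was the only member that passed 1.5-fold under a scaling that equalises the libraries. Elk4, Etv1 and Ets2, whose intervals included 0, changed sign under some alternatives, Ets2 to -0.48 without its peaks near the TSS. The number of genes with a counting interval below 0, reported as 6, was 1, 4, 1 and 2 under median-of-ratios, same total, trimmed mean and same read total (6.97%, 9.32%, 6.81% and 8.21% of all genes), and Etv6 was among them each time. Its widened interval lay below 0 as reported and at the same total of densities only. No paired analysis was possible because each group had 1 library, and for the same reason no library could be left out. Depth limits single peaks: the intervals of 7 of the 56 lay below 0 and of 0 above (11.4% and 3.63% of all peaks).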

Other observations

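Fli1 and Ets1 are neighbours on chr9 with 94.6 kb between them, and Erg and Ets2 are neighbours on chr16 with 115 kb between them. Each gap held 5 peaks that carry no ETS symbol. Between Fli1 and Ets1 all 5 were lower in siPiezo2, where 63.7% of all peaks were. The lowest log2 ratio was at a peak in an intron of the transcript Gm47680, 6.49 kb before Ets1. Its density was 31.6 in NC and 16.2 in siPiezo2 (log2 ratio -0.92, -1.62 to -0.26). The intervals of the other peaks of that gap included 0. The strongest peak of that gap had 52.5 in NC and 44.3 in siPiezo2. Between Erg and Ets2 the log2 ratios ran from -0.18 to 0.089, and no interval excluded 0.

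Among the marker lists, Rgs5, a gene of pericytes, had 127 in NC and 56.0 in siPiezo2 (log2 ratio -1.16, -1.52 to -0.82), while Cspg4, also a pericyte gene, had 147 and 165. Kcnj8, the other pericyte marker listed, had no peak.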
